A study of Mus musculus with 12 samples.

Results

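Gene expression in corticotrophs 4 weeks after the end of a dexamethasone (DEX) course was compared with that at the end of the course itself. All 24736 genes above 0.1 normalised counts in at least 3 of the 12 libraries were included, out of 55304 genes listed. The mice were adult males of the *Pomc*-eGFP line on a C57Bl6/J background, 8 weeks old at the start. In this line the *Pomc* promoter drives a green fluorescent reporter (eGFP), and fluorescent cells of the anterior pituitary were collected by flow sorting. The DEX group drank the synthetic glucocorticoid DEX at 2.5 µg/ml for 4 weeks and was taken at day 0 (pools 1 to 3). The recovery group drank the same solution for 4 weeks and then water for 28 days (pools 1 to 3). Both groups, and the control and 7-day recovery groups that share the statistical model, were collected at the same point of an 8-week protocol. The DEX course therefore lay in the last 4 weeks for one group and in the first 4 weeks for the other. All mice carried the transgene, each library was a pool of several mice of 1 cage, and the replicates are pools. The gates took single, viable cells by reporter fluorescence, and the reporter's promoter is that of *Pomc*, whose own level is among the values compared.

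Corticotrophs release ACTH, a peptide cut from the precursor that *Pomc* encodes, and ACTH drives the adrenal cortex to make glucocorticoids. Glucocorticoids bind the receptor encoded by *Nr3c1* and feed back on corticotrophs, where they repress *Pomc* and raise other genes. A long course of a synthetic glucocorticoid suppresses this axis, and the comparison asks which transcripts of the sorted cells stand apart once the drug has been away for 4 weeks.

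The DEX pools held 8323298 to 10452188 reads assigned to genes and the recovery pools 9653421 to 12848078, and 1 read was worth 0.0818 to 0.112 normalised counts. Transcripts of other hormone cells were present: the growth hormone gene *Gh*, which marks somatotrophs, held 8.2% to 11.6% of the reads in the DEX pools and 15.4% to 22.9% in the recovery pools. *Prl*, which marks lactotrophs, held 5.27% to 8.58% and 8.17% to 10.3%, and *Pomc* itself 0.454% to 0.997% and 4.56% to 6.92%. Melanotroph, posterior lobe and RNA quality lists held no called gene in limma, in edgeR's quasi-likelihood test, or, apart from 1 posterior lobe gene, in DESeq2. At an unadjusted p under 0.05 these lists held 0 of 4, 3 of 7 and 1 of 16 tested genes. Of the posterior lobe genes 1 was higher and 2 were lower, beside 5.32% and 4.62% of all genes. In bulk libraries, fewer cells of a type and less RNA per cell cannot be told apart.

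Normalised counts, on a log2(value + 0.1) scale that understates the change of low genes, were tested with limma in 1 model of all 12 libraries. In the recovery pools 102 genes were higher and 114 were lower than in the DEX pools at an adjusted p under 0.05. These are 0.412% and 0.461% of the genes tested, and 0.873% together. All 216 had 3 and 3 pools that did not overlap, which 9.8% of all tested genes did in the higher direction and 9.67% in the lower. Differences of the higher genes ran from 1.12 to 6.58 on the log2 scale with a median of 2.76, and those of the lower genes from −1.27 to −6.15 with a median of −2.85. The median over all tested genes was 0.0021. At an unadjusted p under 0.05 there were 2459 genes. How many genes passed rested on single pools: 20 passed without DEX pool 1, 143 without DEX pool 2 and 32 without DEX pool 3. Without recovery pools 1, 2 and 3 at 28 days the number was 50, 18 and 40. It was 393 without pool 3 of the 7-day group, which enters only the estimate of the spread. Leaving out each of the 12 libraries in turn, 16 genes passed every time: *Cd74*, *Aplnr*, *Col3a1*, *H2-Aa*, *H2-Ab1* and *Nckap1l* were higher, and *Ptgds*, *Adamtsl3*, *Plb1*, *Tmem37*, *Kcnh4*, *Mettl21e*, *Egr3*, *Psg21*, *Adamts14* and *Hif3a* were lower. *Psg21* met the filter only through its DEX pools. With only the 2 compared groups in the model, *Aplnr*, *Nckap1l*, *Ptgds*, *Adamtsl3*, *Plb1* and *Kcnh4* still passed and the rest of the 16 did not. Outside these 16, every called gene lost its call without at least 1 library. Of those named for the smallest adjusted p, *Myom1* did so without DEX pool 1 only, *Tril* without DEX pool 1 or recovery pool 2, *Nmb* without DEX pool 1 or recovery pool 3, and *Psmb8* without DEX pool 1 or recovery pools 2 or 3.

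**Figure D1:**
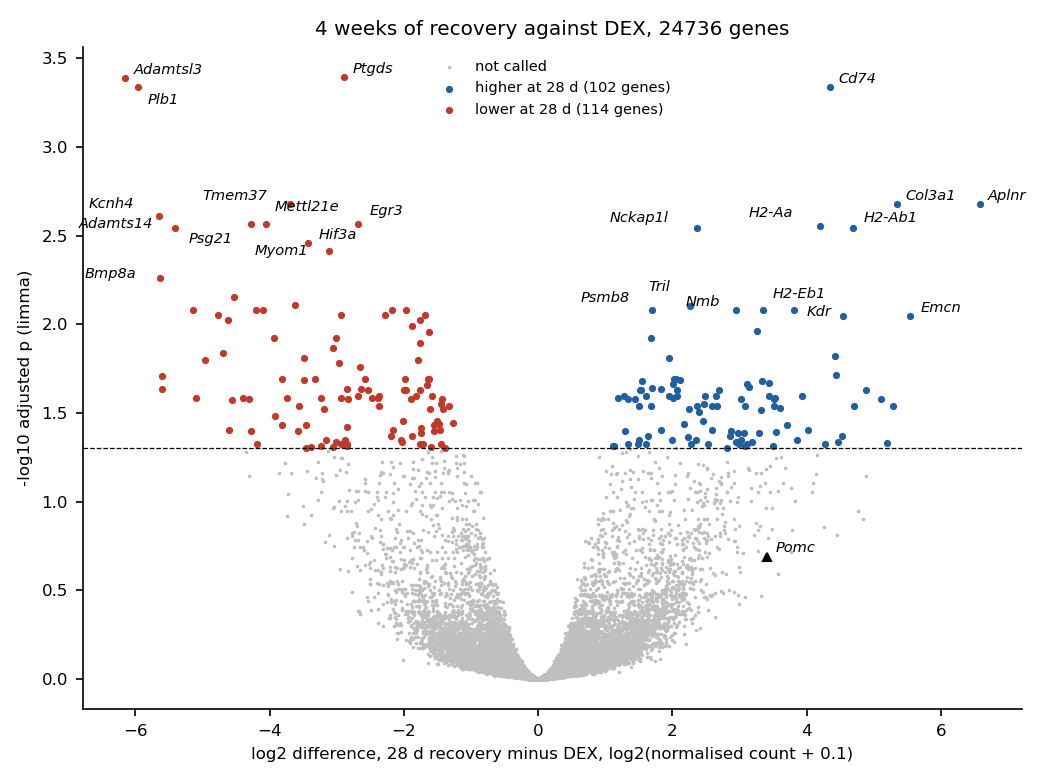
Each point is 1 of 24736 genes, with the log2 difference (28 d recovery minus DEX, log2 of the normalised count + 0.1) on the horizontal axis and −log10 of limma's adjusted p on the vertical axis. Blue points are the 102 genes called higher and red points the 114 called lower above the dashed line at an adjusted p of 0.05, and *Pomc* (triangle) lies on the higher side below that line.

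*Pomc*, the corticotroph's own hormone gene, had 4362, 8521 and 4241 normalised counts in the 3 DEX pools. The recovery pools held 49562, 48189 and 80216, so the lowest lay above the highest DEX pool (p = 0.1 in an exact two-sided permutation test; 3 pools against 3 allow no smaller p, and every gene without overlap reaches it). The log2 difference was 3.42 (standard error 1.1), and its adjusted p in limma was 0.204. Apart from the fits that left out a single library, it passed the threshold in 6 of 12 alternatives, the 3 count models among them, and stayed between 3.18 and 3.74 with 1 library left out, passing in none of those fits. The 7-day pools that enter the spread ranged from 43612 to 284740, and the 3 control pools from 34562 to 74260, a range that the recovery pools overlap.

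*Tbx19*, the T-box factor that activates *Pomc*, ran the other way without passing the test. The DEX pools held 769, 498 and 1490 normalised counts and the recovery pools 166, 94.4 and 188, with no overlap (log2 difference −2.53, limma adjusted p = 0.0885). *Avpr1b*, the pituitary vasopressin receptor, had 103, 67.9 and 130 against 14.2, 9.3 and 24.5 (log2 difference −2.70, limma adjusted p = 0.23). The CRH receptor gene *Crhr1* overlapped between the groups, at 52.7, 59.2 and 138 under DEX and 49.2, 52.9 and 101 after recovery. *Nr3c1* was at 104 to 110 in the DEX pools and 82.9 to 89.1 in the recovery pools, below them without overlap (limma adjusted p = 0.808). None of the 20 corticotroph receptors and transcription factors passed in limma or edgeR's quasi-likelihood test, and DESeq2 called 1 higher and 1 lower. At an unadjusted p under 0.05, 1 was higher and 2 were lower, beside 5.32% and 4.62% of all genes. Their median difference was −0.05.

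Among 20 genes of POMC processing and peptide secretion none passed in limma, and edgeR and DESeq2 each called 1 gene. At an unadjusted p under 0.05, 3 were higher and 1 lower, beside 5.32% and 4.62% of all genes. The prohormone convertase gene *Pcsk1*, which makes the first cuts in the precursor, had 242, 244 and 202 normalised counts under DEX and 417, 367 and 348 after recovery (limma adjusted p = 0.721). *Cpe*, which trims the cut ends, had 938 to 1355 against 1680 to 1921 (adjusted p = 0.592). Both are separate between the groups in every pool and far from the threshold. *Chga*, a granin of the secretory granule, lay on the other side, at 852 to 1537 against 617 to 753 (limma adjusted p = 0.579).

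The gene with the smallest adjusted p among the higher ones was *Cd74*, which encodes the invariant chain, the chaperone of MHC class II molecules. Class II molecules carry peptides to the surface of antigen-presenting cells, and their genes share a short promoter element, the Y box, close to the start. *Cd74* had 3.48, 10.4 and 4.71 normalised counts in the DEX pools and 70.4, 141 and 155 in the recovery pools. It differed by 4.35 on the log2 scale (standard error 0.46, limma adjusted p = 0.00046). The control pools, at 29.6, 42.8 and 104, lay above all DEX pools.

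Promoter windows from RefSeq's promoter table (GRCm38.p6) are shown only for the called MHC genes in which the core of the Y box was found. These genes were higher together and lie close to each other. The core was not found for the called genes *Cd74*, *Psmb8* and *H2-Ab1*, and *H2-Ab1* has no entry in that table. Capitals mark TGATTGG, the core of the Y box, or its reverse complement. The letters are read 5′ to 3′ on the strand of the gene.
H2-Aa: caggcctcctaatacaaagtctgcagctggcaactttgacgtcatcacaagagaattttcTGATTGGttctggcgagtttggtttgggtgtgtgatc
H2-Eb1: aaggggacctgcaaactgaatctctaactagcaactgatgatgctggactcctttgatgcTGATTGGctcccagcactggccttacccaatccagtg
H2-DMb1: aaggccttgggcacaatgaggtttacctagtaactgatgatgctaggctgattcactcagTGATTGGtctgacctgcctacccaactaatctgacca
H2-Q6: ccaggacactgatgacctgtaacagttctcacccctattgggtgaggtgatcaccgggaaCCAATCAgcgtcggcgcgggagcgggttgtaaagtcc
H2-Q7: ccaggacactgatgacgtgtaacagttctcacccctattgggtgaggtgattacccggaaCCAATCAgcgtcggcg
They lie at chr17:34287837-34287933 on the minus strand (*H2-Aa*) and, on the plus strand, at chr17:34305746-34305842 (*H2-Eb1*), chr17:34153068-34153164 (*H2-DMb1*), chr17:35424735-35424831 (*H2-Q6*) and chr17:35439079-35439154 (*H2-Q7*). The core begins 50, 61, 63, 55 and 16 bases before RefSeq's start of transcription in that order. For *H2-DMb1* the GENCODE gene begins further upstream, at 34153072, so by that annotation its core lies within the gene. On either strand it was found in 7.23% of 32851 promoters, taking the 250 bases before the start, and in 7 of the 9 class II genes with an entry. It was also in 8.33% of the promoters of genes called higher and 10.1% of those called lower, beside 8.51% of the promoters of tested genes. A match is a description of the sequence only.

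*H2-Aa* (chromosome 17, 34282744 to 34287823) encodes a class II alpha chain and had 0.994, 4.09 and 1.46 normalised counts under DEX. After recovery it had 16.7, 51.7 and 50, a difference of 4.19 (standard error 0.55, limma adjusted p = 0.00278). *H2-Ab1* (chromosome 17, 34257689 to 34269419), its beta chain partner, went from 1.66, 6.05 and 1.35 to 29.7, 92.8 and 96.3, the recovery pool 1 being the lowest for both chains (log2 difference 4.69, limma adjusted p = 0.00288). *H2-Eb1*, the beta chain of the other class II molecule, had 1.16, 1.96 and 2.69 against 9.7, 25.1 and 30.7 (limma adjusted p = 0.00832), and lost its call without DEX pool 1 or recovery pools 2 or 3. *H2-DMb1*, part of the complex that loads peptides, had 0.248, 0.409 and 0.449 against 2.12, 5.69 and 6.59 (limma adjusted p = 0.0109), with the same 3 losses.

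Of 12 class II presentation genes 5 were called higher and none lower, beside 0.412% of all genes higher, and all 12 differences were positive. Their median was 2.69, or 2.14 with the genes at 0 in every DEX pool set at their lower bound, beside 0.0021 over all genes. The study had itself listed 5 of the 12 on these libraries, so the count is not independent evidence of direction. *H2-Oa*, *H2-DMb2* and *H2-Eb2* had 0 reads in every DEX pool and up to 1.44 normalised counts in a recovery pool, without passing. *Ciita*, the activator of class II genes, had 0 to 0.745 in the DEX pools and 0.185 to 2.8 in the recovery pools, and the groups overlapped. The summed list ranged from 18.7 to 38.3 under DEX, from 145 to 379 after recovery and from 68.7 to 199 in control.

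*Psmb8*, a subunit of the immunoproteasome that cuts peptides for class I molecules, had 11.6, 14.1 and 15 normalised counts under DEX and 32.5, 43.2 and 59.7 after recovery (log2 difference 1.69, limma adjusted p = 0.00832). The class I genes *H2-Q6* and *H2-Q7* were also called. *H2-Q6* had 1.41, 2.7 and 0.897 against 9.7, 7.66 and 15 (limma adjusted p = 0.0235). *H2-Q7* had 1.49, 1.23 and 2.35 against 9.24, 8.98 and 11.7 (limma adjusted p = 0.0473). Because 32% and 26.4% of the 50-base words of their transcripts also occur in other genes, reads could be split between copies. The called genes of the class I and II lists other than *Cd74*, 7 in all, lie between 34153072 and 35443773 on chromosome 17. The main class I gene *H2-K1*, at 148 to 220 against 283 to 386, was separate in every pool and did not pass (adjusted p = 0.172 in limma). Over 22 class I genes 3 were called higher and none lower, beside 0.412% of all genes higher, with a median difference of 0.45.

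Interferon stimulated genes, which cells switch on against viruses, gave 3 called genes of 35, all higher, beside 0.412% of all genes. *Iigp1*, an interferon-induced GTPase, had 0.994, 2.13 and 0.449 normalised counts against 25.3, 12 and 15.3 (limma adjusted p = 0.0254). *Bst2*, which tethers virus particles, had 1.66 to 2.13 against 6.65 to 9.29, and *Ifi44* 0.409 to 0.449 against 2.96 to 6.57. At an unadjusted p under 0.05 there were 18 higher and 1 lower, beside 5.32% and 4.62% of all genes, and the median was 0.77. *Cxcl10*, a chemokine induced by interferon and outside the list, had 0.745, 2.04 and 0.561 against 14.2, 7.22 and 7.67 (limma adjusted p = 0.0226, named after its values were seen).

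Among genes of macrophages and other leukocytes, *Nckap1l*, a subunit of the actin-regulating WAVE complex in blood cells, had 3.89, 5.31 and 4.49 normalised counts under DEX and 24.4, 23.1 and 23.6 after recovery. The recovery pools differed by less than 2 normalised counts from each other (log2 difference 2.36, standard error 0.32, limma adjusted p = 0.00288). *Plbd1*, a lysosomal hydrolase of myeloid cells, had 2 reads over the DEX pools and 105 over the recovery pools, a ratio of 56.2 with a 95% exact counting interval of 15.2 to 470 (limma adjusted p = 0.0152). These were the 2 genes called of 28, with none lower, beside 0.412% of all genes called higher. At an unadjusted p under 0.05, 16 were higher, beside 5.32% of all genes. The pan-leukocyte gene *Ptprc*, at 0.409 to 1.33 against 1.85 to 2.96, and the macrophage gene *Cd68*, at 1.23 to 1.49 against 3.23 to 4.96, were separate between the groups and did not pass (limma adjusted p = 0.275 and 0.16). *Csf1r* and *Aif1*, 2 further macrophage genes, overlapped. The summed list ranged from 40.1 to 53.4 under DEX, 96.5 to 169 after recovery and 56.9 to 84.3 in control. Like the class II sum, it was lower in every DEX pool than in every recovery pool. Over the recovery pools both sums rose in the same order, at 145, 348 and 379 for class II and 96.5, 168 and 169 for leukocytes. Under DEX pool 1 was the lowest in both, and in control pool 3 was the highest in both. At 7 days the sums differed in order: pool 1 had the highest leukocyte sum (202) and the lowest class II sum (133). The part of leukocytes in the class II differences was not tested.

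Of 23 genes of blood vessel endothelium 9 were called higher, beside 0.412% of all genes. *Aplnr*, the apelin receptor of endothelial cells, was at 1 read over the 3 DEX pools and at 10.6, 18.1 and 8.03 normalised counts in the recovery pools (369 reads). The ratio was 395, with a 95% exact counting interval of 70.4 to 15640, and limma gave an adjusted p of 0.0021. *Kdr*, the main receptor for vascular endothelial growth factor, had 0.994, 2.7 and 0.673 against 25.6, 23.8 and 10.6 (log2 difference 3.81, limma adjusted p = 0.00832). *Emcn*, the endothelial sialomucin endomucin, had 0.0828, 0.327 and 0 against 10.2, 11.2 and 6.77 (log2 difference 5.54, limma adjusted p = 0.00902). Recovery pool 3 was the lowest for all 3 genes and still above every DEX pool.

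The other called endothelial genes were *Adgrl4*, *Plvap*, *Tek*, *Tie1*, *Pecam1* and *Robo4*. *Plvap*, which forms the diaphragms of fenestrated capillaries, had 1.33, 4.17 and 3.14 against 71.1, 94.7 and 51.3 normalised counts (limma adjusted p = 0.029). *Tek* and *Tie1*, receptors of the angiopoietin system, had at most 0.331 and 0.166 in any DEX pool and at least 4.78 and 2.44 in any recovery pool. None of the 23 was called lower, 19 were higher at an unadjusted p under 0.05, beside 5.32% of all genes, and the median was 3.27. Of the 23 the study listed 4. The cadherin gene *Cdh5*, at 0 to 0.336 against 0.812 to 2.96, and the receptor gene *Flt1*, at 0 to 0.572 against 1.53 to 2.5, did not pass (limma adjusted p = 0.376 and 0.195). *Erg* was at 0 in all DEX pools. The calls of *Kdr* and *Emcn* were lost without DEX pool 1 or 3 or recovery pool 1 or 2, and *Robo4* passed in 3 of the 12 fits with 1 library left out.

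The summed endothelial list ranged from 11.4 to 18.4 in the DEX pools and from 124 to 242 in the recovery pools. In control it ranged from 17.7 to 105 and in the 7-day pools from 48 to 297, so the control pools reached from the DEX level towards that of recovery and the 7-day pools overlapped the recovery range. The summed list of erythroid genes, which red cells express, was 1.06 to 1.23 under DEX and 4.62, 49.6 and 6.32 after recovery, recovery pool 2 standing apart. Of the recovery pools, pool 2 had the highest endothelial and erythroid sums (242 and 49.6), and pools 1 and 3 stood in opposite order in the 2 lists. In control and at 7 days pool 3 had the highest endothelial sum (105 and 297) and the lowest erythroid sum (0.979 and 1.11). *Slc4a1*, the anion exchanger of red cells, was at 0 in every pool of both groups, and no erythroid gene of 5 tested was called in limma or edgeR (3 at an unadjusted p under 0.05, 1 in DESeq2). Whether vessel cells or their RNA entered the sorted fraction in different amounts was not tested.

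**Figure D2:**
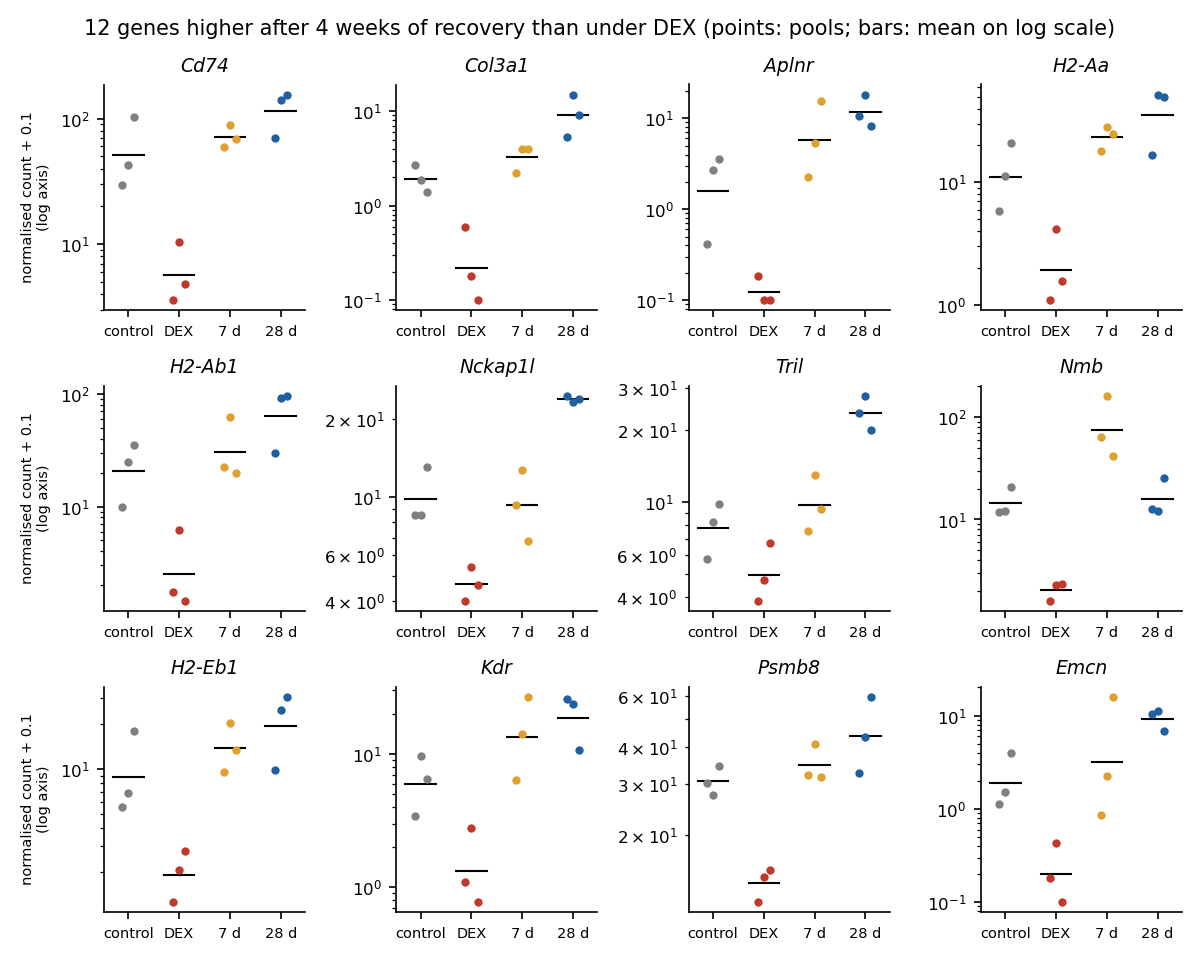
Normalised counts + 0.1 on log axes for the 12 higher genes with the smallest adjusted p, in control, DEX, 7-day and 28-day recovery pools (3 points each; bars are means on the log scale). For every gene the 3 recovery pools at 28 d lie above the 3 DEX pools, from *Psmb8* at 32.5 to 59.7 against 11.6 to 15 to *Aplnr* at 8.03 to 18.1 against 1 read in all.

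Among genes of pericytes, smooth muscle and fibroblasts, *Col3a1*, a fibrillar collagen, had 0.497, 0.0818 and 0 normalised counts under DEX and 5.27, 14.8 and 9.02 after recovery. Its log2 difference was 5.34 (standard error 0.66, limma adjusted p = 0.0021). *Pdgfrb*, the receptor that marks pericytes, had 0.248, 0.572 and 0 against 6.56, 8.98 and 3.79 (limma adjusted p = 0.0194). *Cxcl12*, a chemokine made by stromal cells, had 6.13, 5.23 and 6.95 against 22, 19 and 18 (limma adjusted p = 0.0119). *Mfap4*, *Fbln5* and *Prelp*, proteins of elastic fibres and matrix, were called as well. *Mfap4* had 0.449 to 0.828 against 4.34 to 8.03.

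Within the same list *Myh11* and *Tpm2* were lower after recovery. *Myh11*, the myosin of smooth muscle, had 5.3, 1.8 and 5.61 normalised counts under DEX and 3 reads over the recovery pools. The ratio of DEX to recovery was 42.4 with a 95% exact counting interval of 14.2 to 208 (limma adjusted p = 0.0265). *Tpm2*, a tropomyosin, had 28.6, 13.3 and 61.3 against 2.4, 0.219 and 1.62 (limma adjusted p = 0.0145). The smooth muscle actin *Acta2*, at 0.166 to 0.818 against 0.219 to 4.43, overlapped. Over the 30 genes 6 were called higher and 2 lower, beside 0.412% and 0.461% of all genes, with a median of 1.68, and the study listed 9. The summed list ranged from 176 to 200 under DEX, 290 to 405 after recovery and 137 to 218 in control.

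Basement membrane genes gave 4 called of 14, all higher, beside 0.412% of all genes: *Col4a1*, *Col4a2*, *Nid1* and *Nid2*. *Col4a1* and *Col4a2*, which encode the chains of the common type IV collagen, had 4.82 to 6.79 against 20.4 to 35.5 and 1.68 to 1.96 against 10.9 to 13.6 normalised counts (limma adjusted p = 0.0311 and 0.029). *Nid1*, a linker of the membrane, had 0.994, 1.23 and 2.35 against 14.6, 14.7 and 9.84 (limma adjusted p = 0.029). *Tril*, a leucine-rich partner of Toll-like receptors that is in none of the lists, had 3.73, 4.58 and 6.62 against 23.6, 27.8 and 19.9 (log2 difference 2.26, limma adjusted p = 0.00784). Its control pools, at 5.66 to 9.68, lay below all recovery pools.

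Signalling peptides and receptors of the pituitary held a few called genes each. *Nmb* (chromosome 7, 80902227 to 80905076) encodes neuromedin B, a bombesin-like peptide, and had 1.49, 2.21 and 2.24 normalised counts under DEX. After recovery it had 12.7, 12 and 25.4, against 11.7, 11.9 and 20.7 in control (log2 difference 2.95, standard error 0.45, limma adjusted p = 0.00832). Recovery and control pools overlapped, and the 7-day pools were above both, at 41.5 to 162. *Nmu*, neuromedin U, had 0, 0.164 and 0.336 against 2.22, 2.08 and 2.8 (limma adjusted p = 0.0254). *Cartpt*, the CART peptide, was lower, with 42.6, 16.4 and 90.3 against 8.22, 3.5 and 5.68 (limma adjusted p = 0.0265). These were the 3 called of 23 tested, beside 0.873% of all genes, and *Penk*, the enkephalin precursor, overlapped at 43.6 to 66.7 and 22 to 44.2.

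*Sstr2*, a somatostatin receptor that inhibits hormone release, had 0.663, 0.491 and 0.449 normalised counts under DEX and 2.77, 7.01 and 12.3 after recovery (log2 difference 3.33, limma adjusted p = 0.0208). *Sstr5*, the other main somatostatin receptor of the pituitary, had 2.24 to 9.31 against 11.5 to 25.1 and did not pass (adjusted p = 0.229 in limma). The dopamine receptor *Drd2* overlapped. *Chrm2*, a muscarinic receptor, was lower, with 17, 17.3 and 25.2 against 0.554, 0 and 0.902 (log2 difference −5.60, limma adjusted p = 0.023), and so was *Gpr39*, a zinc-sensing receptor, with 13.3 to 52.8 against 3.7 to 7.22.

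Among markers of other hormone cells, *Tshb*, the beta chain of thyrotropin, had 41.8, 257 and 91.3 normalised counts under DEX and 709, 442 and 689 after recovery (log2 difference 2.59, limma adjusted p = 0.029). It is called by limma and not by edgeR's quasi-likelihood test. *Gata2*, a factor of thyrotrophs and gonadotrophs, had 8.45 to 12.6 against 28.4 to 34.4 (limma adjusted p = 0.0254). *Rxrg*, a retinoid receptor in the somatotroph list, had 17.6 to 26.7 against 50.9 to 61.2 (limma adjusted p = 0.0265). *Gh* itself had 67563 to 104242 against 150271 to 265851 and did not pass (limma adjusted p = 0.916), nor did *Prl* (adjusted p = 0.933 in limma). The summed thyrotroph list of 4 genes was 59.1 to 276 under DEX and 492 to 756 after recovery, above the 140 to 305 of control. None of the 13 stem and folliculostellate genes was called in limma or edgeR. At an unadjusted p under 0.05, 5 were higher, beside 5.32% of all genes, and DESeq2 called 3. None of the gonadotroph and lactotroph genes was called in limma, edgeR or DESeq2, nor had an unadjusted p under 0.05. Shares of cells were not measured, and the part of admixed hormone cells in these differences was not tested.

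Genes lower after recovery were led by *Ptgds* (chromosome 2, 25466709 to 25470046), the lipocalin-type synthase of prostaglandin D2. The DEX pools held 130, 132 and 245 normalised counts and the recovery pools 21.5, 18.9 and 24.7, a difference of −2.89 (standard error 0.27, limma adjusted p = 0.000404). The control pools, at 30.5 to 44.6, lay above every recovery pool. *Plb1*, a phospholipase of the cell membrane, had 10.2, 8.99 and 15.9 against 0.0924, 0.219 and 0, or 375 reads against 3. That is a ratio of 117 with a 95% exact counting interval of 39.7 to 569 (limma adjusted p = 0.00046). No read of it was found in control.

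A pair of extracellular proteins of the ADAMTS family stood near the top. *Adamtsl3*, which lacks the protease part, had 6.87, 4.25 and 11.7 normalised counts under DEX and 0 reads in all 3 recovery pools. Against a floor of 3 reads per library it was at least 26-fold lower (limma adjusted p = 0.000407). *Adamts14*, a protease that trims procollagen, had 3.4, 3.92 and 10.4 against 1 read over the recovery pools, a ratio of 170 with a 95% exact counting interval of 30.1 to 6753 (limma adjusted p = 0.00288). *Bmp8a*, a growth factor of the TGF-beta family, had 11.2, 1.96 and 19.7 against 3 reads, a ratio of 104 with an interval of 35.4 to 508 (limma adjusted p = 0.00549), and lost its call without DEX pool 1 or recovery pool 2.

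Membrane proteins followed. *Tmem37*, a relative of calcium channel gamma subunits, had 176, 90.3 and 335 normalised counts against 11.5, 11.3 and 18.2 (log2 difference −3.70, limma adjusted p = 0.0021). *Kcnh4*, a voltage-gated potassium channel, had 18.6, 11.7 and 30.8 against 0.462, 0.109 and 0.361 (log2 difference −5.64, limma adjusted p = 0.00246). In both the DEX pools 1 and 3 were above pool 2, an order seen as well in *Bmp8a*, *Tpm2*, *Cartpt* and *Gpr39*.

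*Hif3a*, a subunit of the hypoxia-inducible factors, had 21.5, 19.1 and 24.8 normalised counts under DEX and 3.33, 1.97 and 1.08 after recovery (log2 difference −3.42, limma adjusted p = 0.00348). *Mettl21e*, a protein methyltransferase known from muscle, had 14.3, 6.95 and 12.2 against 0.832, 0.438 and 0.451 (limma adjusted p = 0.00271). *Psg21*, a pregnancy-specific glycoprotein, had 1.16, 1.64 and 3.25 under DEX and 0 reads in the 9 pools of the other groups, at least 6.9-fold lower in the recovery pools (limma adjusted p = 0.00271). It met the filter on low values only through the DEX pools where it was high, so its call is no independent support. The call was lost in DESeq2 and with only the 2 groups in the model. *Psg20* and *Psg22* beside it on chromosome 7 (18646736 to 18727248 for the 3 genes) were called lower too. The 3 share 17.8% to 26.9% of their 50-base words with other genes, so the split of reads among them is uncertain. *Apol7b* and *Apol7e*, apolipoprotein L genes that share over 70% of their words, were likewise detected under DEX, with 41 and 32 reads, and at 0 and 1 read after recovery.

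**Figure D3:**
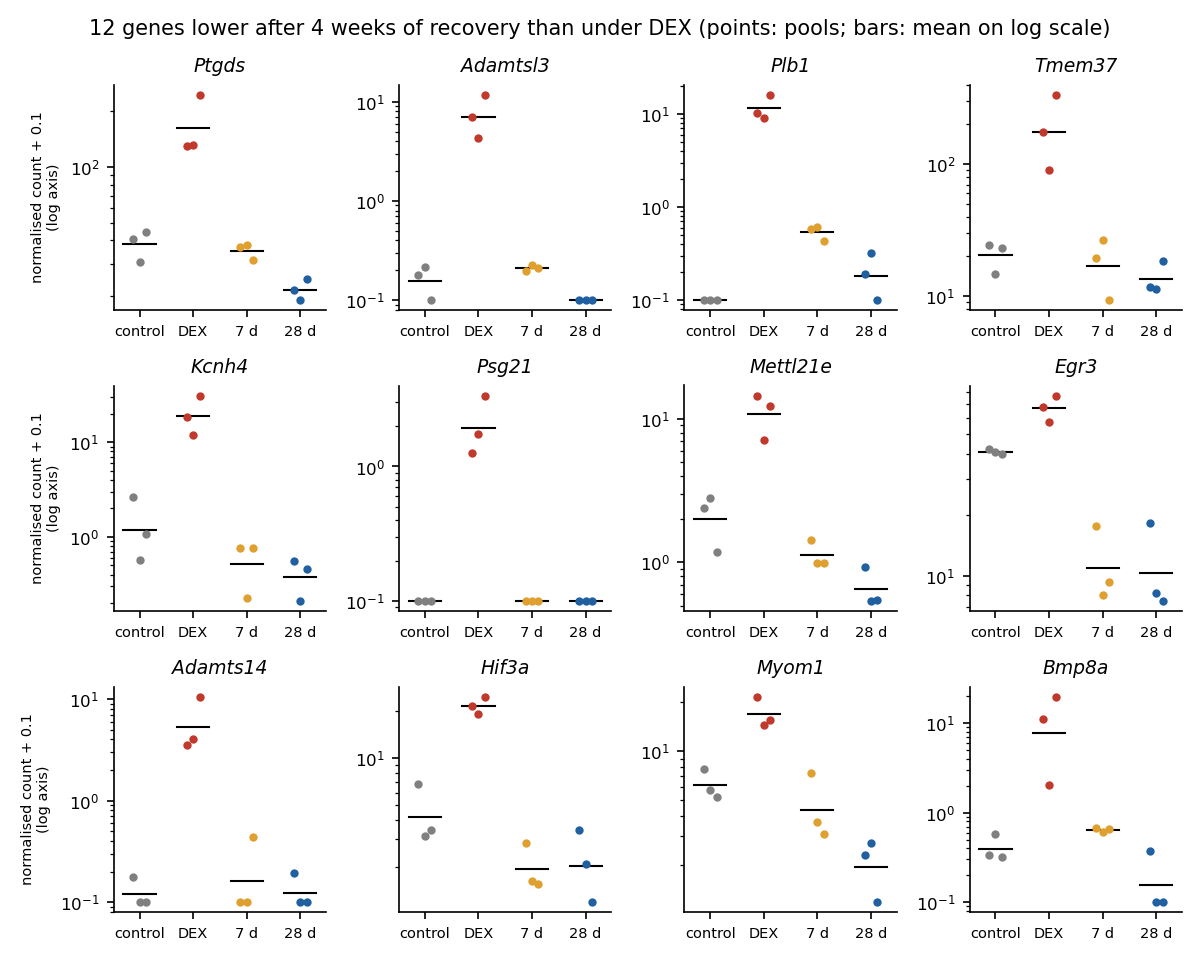
Normalised counts + 0.1 on log axes for the 12 lower genes with the smallest adjusted p, in control, DEX, 7-day and 28-day recovery pools (3 points each; bars are means on the log scale). The 3 DEX pools lie above the 3 recovery pools at 28 d in every panel, and *Egr3* is also lower at 28 d (7.4 to 18) than in control (39.7 to 42.1).

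The *Klk1* kallikreins, secreted serine proteases encoded side by side, gave 7 called genes of 13 tested, all lower, beside 0.461% of all genes. The called genes lie between 43995877 and 44220703 on chromosome 7. *Klk1b21* had 13.4, 8.09 and 18.3 normalised counts under DEX and 0.185, 0.438 and 0.993 after recovery (log2 difference −4.52, limma adjusted p = 0.00701). *Klk1b26* had 41.4, 24.6 and 61.6 against 3.7, 3.72 and 7.58, and *Klk1b16* 37.6, 30.1 and 80.7 against 4.62, 5.69 and 12.8. DEX pool 2 was the lowest DEX pool of all 3, and no recovery pool reached it. *Klk1b4* had 0.736 to 6.5 under DEX and 0 reads after recovery, at least 11.2-fold lower. *Klk1b5*, *Klk1b11* and *Klk1b22* were called with 176, 27 and 32 reads over the DEX pools and 2, 0 and 2 over the recovery pools. *Klk1b22* kept its call in 2 of the 12 fits with 1 library left out, and neither it nor *Klk1b11* passed in edgeR's quasi-likelihood test.

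All 13 differences of the kallikrein list were negative, with a median of −2.68, or −2.34 with the genes at 0 in every recovery pool at their bound. The study listed 6 of them on these libraries. The founding member *Klk1* had 12 to 16 against 3.17 to 4.25 normalised counts without passing (limma adjusted p = 0.0657). From 10.1% to 33.9% of the 50-base words of each transcript of the family occur in other genes, so the reads of a member may belong to a neighbour. The sum over the family, which a split among its members leaves as it is, was 131, 89.8 and 217 under DEX, 15.6, 18.3 and 30.5 after recovery, and 16.7 to 22.5 in control.

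Known targets of the glucocorticoid receptor were lower where they passed: 6 of 42 were called lower and none higher in limma, beside 0.461% of all genes lower. At an unadjusted p under 0.05 there were 18 lower and none higher, beside 4.62% lower and 5.32% higher among all genes, and the median was −0.88. The study listed 11 of the 42. The summed list ranged from 8085 to 10016 under DEX, 4257 to 7257 after recovery and 8822 to 9899 in control. The control pools thus lay within the DEX range and above every recovery pool. The called genes were *Hif3a*, *Zbtb16*, *Sult1a1*, *Pik3ip1*, *Lrg1* and *Mthfd2*. *Zbtb16*, a zinc finger repressor, had 48.1, 22.6 and 41.7 normalised counts under DEX and 17.7, 10.4 and 9.65 after recovery (limma adjusted p = 0.0401). *Sult1a1*, a sulfotransferase, had 27.4, 21.6 and 42.7 against 3.97, 4.38 and 5.68 (limma adjusted p = 0.023). *Lrg1*, a secreted leucine-rich glycoprotein, had 25.8, 8.34 and 36.2 against 2.22, 2.85 and 0.722 (limma adjusted p = 0.0205).

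Other targets did not pass. *Fkbp5*, a chaperone partner of the receptor, had 545, 230 and 354 normalised counts under DEX and 100, 133 and 130 after recovery, separate in every pool (log2 difference −1.56, limma adjusted p = 0.105). *Tsc22d3*, which encodes GILZ, had 99.3 to 122 against 118 to 143, and *Sgk1*, a kinase, had 51.5 to 121 against 30.9 to 153. *Dusp1*, a phosphatase, was at 666 to 922 against 1074 to 1264 (adjusted p = 0.586 in limma). The full palindromic glucocorticoid response element was found in the 250 bases before the start of *Sgk1*, in 0.00913% of all promoters and before no called gene. One arm of it, AGAACA on either strand, was in 10.7% of the promoters of genes called higher and 7.34% of those called lower, beside 12.3% of the promoters of tested genes and 16.1% of all promoters. No match says only that these letters are not in this window.

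*Egr3*, an immediate early zinc finger factor, had 67.6, 57.1 and 76.9 normalised counts under DEX and 18, 8.1 and 7.4 after recovery, with recovery pool 1 above the others (log2 difference −2.69, standard error 0.35, limma adjusted p = 0.00271). It was the 1 called gene among 23 immediate early genes, which respond within minutes to stimulation of a cell, beside 0.461% of all genes lower. Its relatives *Egr1* and *Egr2* were also separate, at 3009 to 5068 against 2218 to 2531 and at 992 to 1985 against 452 to 636, without passing (limma adjusted p = 0.606 and 0.169). *Fos* overlapped at 3761 to 4670 and 3266 to 4041. The median of the list was −0.58.

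Clock genes gave 2 called of 20, both lower, beside 0.461% of all genes. *Per3*, a period gene, had 124, 99.5 and 84.6 normalised counts under DEX and 35.1, 17.8 and 27.5 after recovery (limma adjusted p = 0.0235). *Ciart*, a repressor of the clock, had 46.1, 16.3 and 34.4 against 7.95, 2.96 and 4.87 (limma adjusted p = 0.0202). *Per1*, which is also a glucocorticoid target, had 51.9 to 58 against 21 to 37.4 (adjusted p = 0.246 in limma), and *Arntl* and *Nr1d1* overlapped. The median of the 20 was −0.66. At an unadjusted p under 0.05, 8 were lower and none was higher, beside 4.62% and 5.32% of all genes. The study's methods give a single morning window in which all groups were killed.

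Of 13 ion transport genes that the study itself named from these libraries 8 were called lower, beside 0.461% of all genes. At an unadjusted p under 0.05, 12 were lower and 1 was higher, beside 4.62% and 5.32% of all genes. Since the study chose them on these libraries, the counts are no independent evidence of direction. The called genes were *Kcnh4*, *Tmem37*, *Pkd1l2*, *Asic2*, *Atp2a1*, *Slc12a5*, *Slc5a3* and *Slc44a4*. *Atp2a1*, a calcium pump of the sarcoplasmic reticulum, had 135, 53.6 and 249 normalised counts under DEX and 7.95, 4.38 and 13.8 after recovery (limma adjusted p = 0.012). *Slc12a5*, the potassium chloride cotransporter KCC2, had 29.2, 29.4 and 51.7 against 7.11, 6.24 and 10.5 (limma adjusted p = 0.00832). Of 21 cotransporters, sodium pumps and calcium pumps chosen by family, only these 2 were called in limma and in edgeR's quasi-likelihood test, and the median was −0.04.

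Of 21 genes of muscle contraction 4 were called lower and none was called higher, beside 0.461% of all genes called lower. *Tnnt1*, the slow skeletal troponin T, had 240, 150 and 408 normalised counts under DEX and 15.1, 10.7 and 17.6 after recovery (log2 difference −4.10, limma adjusted p = 0.00832). *Myom1*, a protein of the sarcomere's M band, had 21.5, 14.4 and 15.4 against 2.22, 2.63 and 1.08 (log2 difference −3.11, limma adjusted p = 0.00387). With *Myh11* and *Tpm2* they are the members that passed. *Tnnc2* was at 0 in every DEX and recovery pool, *Tnnt3* likewise, and the median of the list was −0.41, with 12 of 21 differences negative.

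Proliferation genes gave 2 called of 42, both lower: *Cenpe*, a kinetochore motor, with 7.87, 5.64 and 8.07 against 1.39, 0.547 and 0.451 normalised counts, and *Fancd2*, a DNA crosslink repair protein, with 15.4, 8.83 and 29.2 against 0.924, 2.3 and 1.08 (limma adjusted p = 0.0452 and 0.0155). The cycling marker *Mki67* was low and overlapped, at 0 to 0.899 and 0.277 to 1.42. *Top2a*, which untangles DNA in dividing cells, lay on the other side, at 0.245 to 0.673 against 1.48 to 4.71 (adjusted p = 0.0851 in limma). At an unadjusted p under 0.05 there were 8 higher and 2 lower of the 42, beside 5.32% and 4.62% of all genes, and the median was 0.31. Of all genes 0.461% were called lower. The netrin receptor *Unc5b* was lower, with 12.8 to 29.4 against 0.328 to 2.53, and the Nogo receptor relative *Rtn4rl1* higher, with 4.47 to 8.42 against 16.3 to 32.8, in a list of 15 guidance genes. Of 24 endoplasmic reticulum folding genes and 23 cholesterol synthesis genes none was called in limma, edgeR or DESeq2 and none had an unadjusted p under 0.05, with medians of 0.14 and 0.18.

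**Figure D4:**
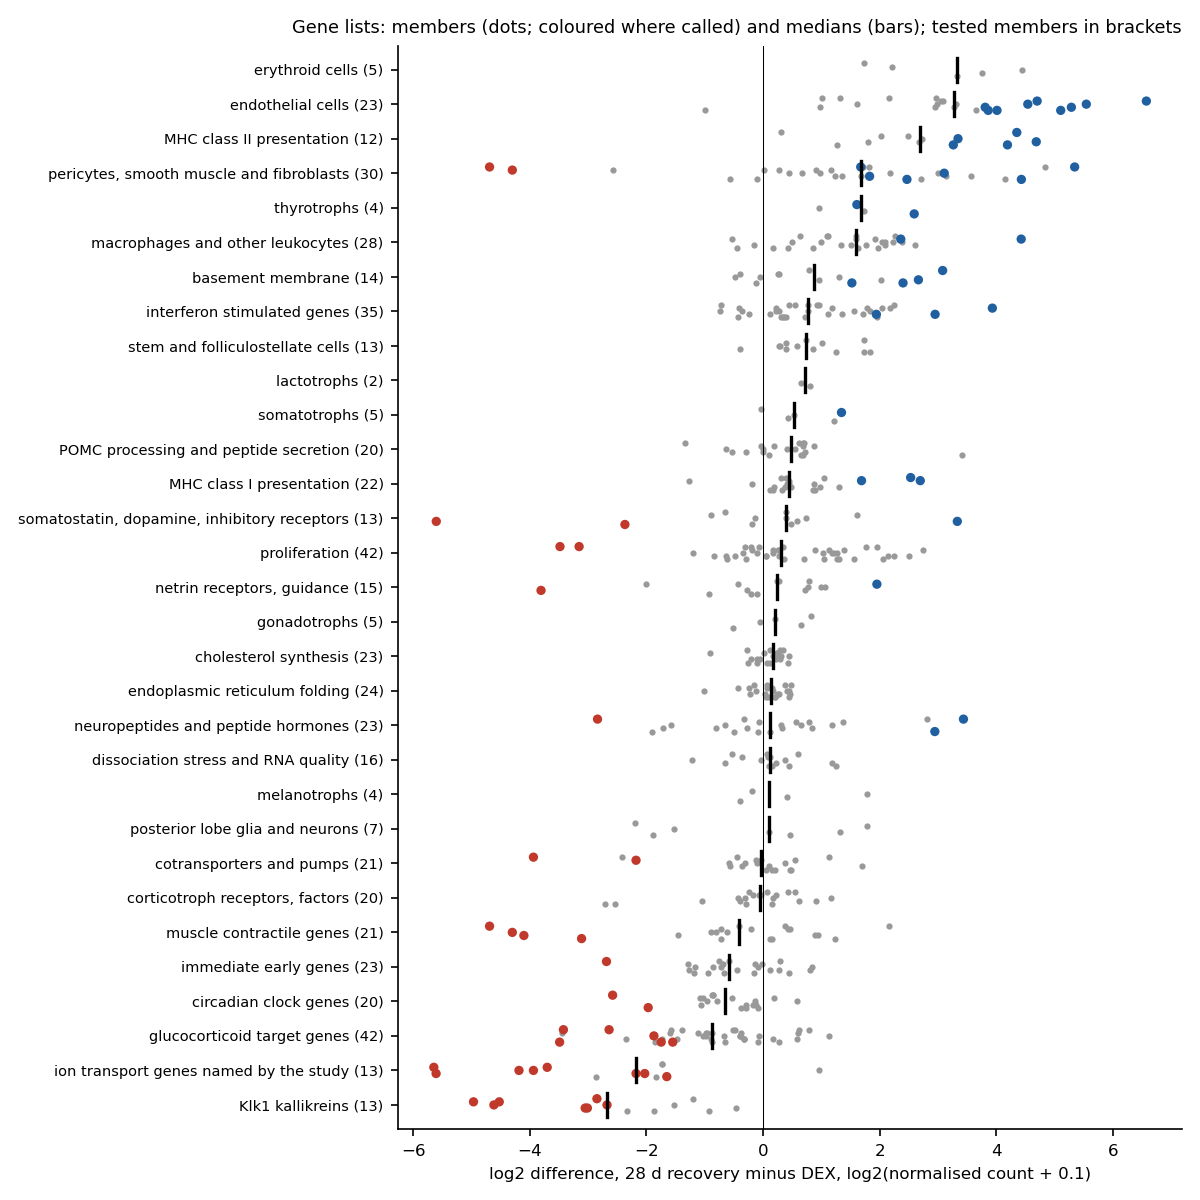
Log2 differences (28 d recovery minus DEX, log2 of the normalised count + 0.1) of the tested members of 31 gene lists, ordered by median. Grey dots are members that were not called, blue and red dots are called members and black bars are medians, which run from −2.68 for the *Klk1* kallikreins to 3.33 for 5 erythroid genes, none of them called.

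The 216 genes were placed against the 3 control pools as a description, since the DEX and recovery pools had chosen them. Of the 114 lower genes, 105 had every DEX pool above every control pool, and 71 of them had recovery pools that overlapped the control range. A further 33 had recovery pools below all control pools as well, among them *Ptgds* and *Egr3*, and 1 had recovery pools above them. Of the 102 higher genes, 60 had every DEX pool below every control pool, and 74 had every recovery pool above every control pool. Both held for 37 genes, for instance *Cxcl12*, *Nckap1l* and *Bst2*. For 37 others the recovery pools were above control while the DEX pools overlapped it, and for 23 the DEX pools were below control while the recovery pools overlapped it, as for *Nmb*. *Pomc*, which was not called, had the same placement. Over all tested genes the recovery pools were above control in 6.77% and below in 6.42%, and the DEX pools above in 6.61% and below in 6.23%. The DEX and recovery pools enter both placements, so these counts share samples.

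**Figure D5:**
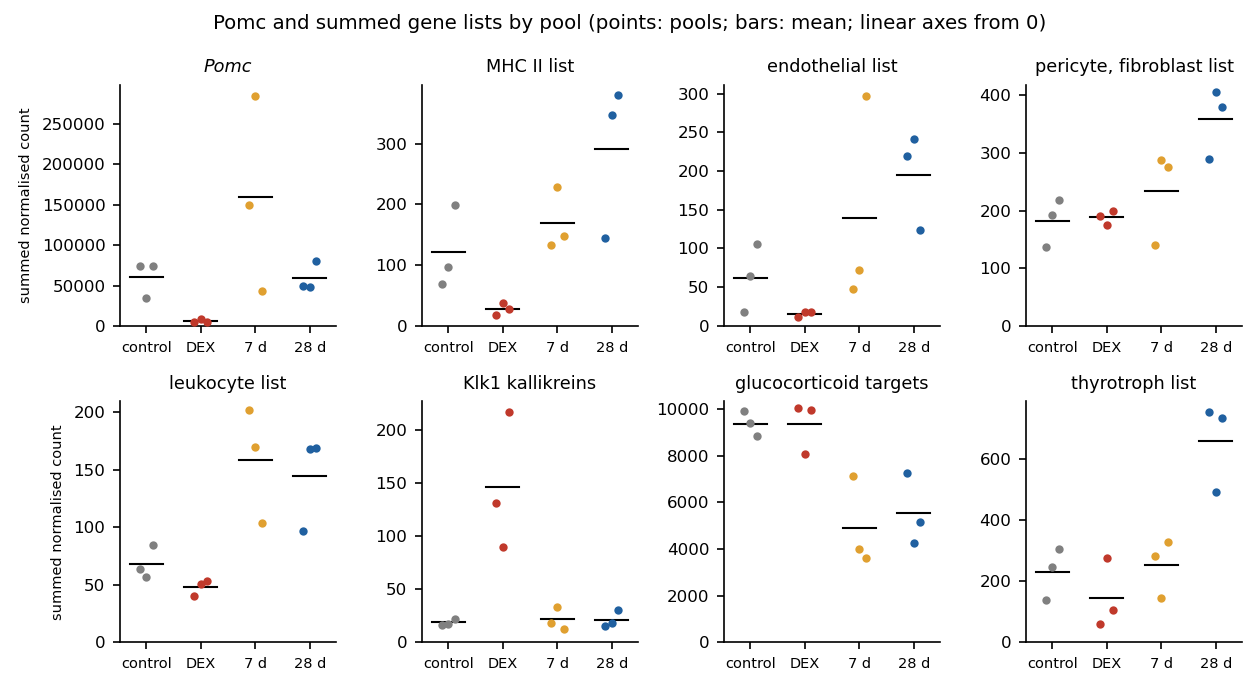
*Pomc* and the summed normalised counts of 7 gene lists in each pool on linear axes that start at 0 (points are pools and bars are means). Under DEX the MHC class II, endothelial and leukocyte sums (18.7 to 38.3, 11.4 to 18.4 and 40.1 to 53.4) lie below all 28 d pools and the *Klk1* sum (89.8 to 217) above them, while the control pools fall between or beside the groups.

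Count models on the recovered reads called 0.865% (edgeR quasi-likelihood), 2.68% (edgeR likelihood ratio) and 2.68% (DESeq2) of the genes in this comparison, and 180, 210 and 202 of the 216 genes were among their calls. The endothelial list had 8 called members in the quasi-likelihood test and 12 in DESeq2, the class II list 6 in each, the glucocorticoid targets 10 and 14 and the kallikreins 5 and 6, all in the direction found by limma. *Pomc* differed by 3.37 in the quasi-likelihood test, with an adjusted p of 0.0206 in edgeR.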

How the data were processed

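The libraries were made from sorted cells of 12 pools, 3 in each of 4 groups, by low-input amplification, and the groups were taken from the sample labels. The authors trimmed reads with Trim Galore 0.6.5, aligned them to GRCm38 with STAR 2.7.1a and counted them with featureCounts 2.0.0. The deposited table holds a normalised signal per gene and library, which the authors had scaled with edgeR to CPM of a TMM-adjusted library size. The design had assumed plain CPM, and the test was kept because both are normalised. Per the values, 100% of the 271881 entries above 0 were whole multiples of 1 read (within 0.0001 reads), so reads could be recovered for the count models.

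Genes above 0.1 in at least 3 of 12 libraries were tested with limma 3.58.1 (lmFit, eBayes with trend) on log2(value + 0.1) in R 4.3.3, with all 12 libraries in 1 model, no covariate and Benjamini-Hochberg adjustment over 24736 genes. An adjusted p under 0.05 was called. Alternatives were pseudocounts of 0.5 and 1, no filter, a filter at 1, median-ratio scaling, array weights, robust moderation, only the 2 groups, a replicate block, each library left out, edgeR 4.0.16 and DESeq2 1.42.0. The fit was tested on simulated data. Named are the 12 higher and 12 lower genes with the smallest adjusted p among called genes without overlap and with a mean of at least 1 in the higher group, *Pomc*, and called or defining members of 31 lists. Other genes named were chosen after their values were seen. The comparison, members and lists were chosen with earlier results of these data known. Gene positions are those of GENCODE on GRCm38, and promoters are those of RefSeq on GRCm38.p6. Reads on genes ranged from 7719894 to 12848078, the libraries carry no molecular identifiers, and intervals and floors cover counting error only. Nothing else tells whether pools vary as single animals would, so p-values measure the spread between pools.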

Additional observations from a re-analysis of the deposited data

How the results depend on the processing

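No followed gene changed direction: 82 genes gave 1963 values under the alternatives, of which 1531 kept their side of the threshold, 426 lost it and 6, all of *Pomc*, gained it. The number of genes called, 216 (102 higher, 114 lower), became 1300 (651 and 649) with array weights, 664 (318 and 346) with edgeR's likelihood ratio test and 662 (338 and 324) with DESeq2. It fell to 21 (11 and 10) with only the 2 groups in the model, and the higher genes to 65 without a filter on low values, where 32600 genes were tested. With 1 library left out the number ranged from 18 to 393 in all, from 6 to 180 for higher genes and from 11 to 213 for lower genes, the cause was not tested, and leaving out a pool leaves 2 in its group. Pseudocounts of 0.5 and 1, a filter at 1, median-ratio scaling, robust moderation and edgeR's quasi-likelihood test gave 205 to 226. A replicate block gave 241, with 186 genes shared, but the numbers do not pair the pools: same-numbered DEX and recovery pools correlated at 0.134, −0.033 and 0.19. Of the 24 genes named for their adjusted p, 16 passed in all 12 fits with a library left out. Of the 216, 6 passed in all 24 alternatives: *Aplnr*, *Nckap1l*, *Ptgds*, *Adamtsl3*, *Plb1* and *Kcnh4*. With 3 pools a side, genes at a few reads are the least certain, and a difference that did not pass may still exist.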
